A study of Mus musculus with 40 samples.

Results

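The genes that make, load, recapture and break down γ-aminobutyric acid (GABA) were followed in the brain transcriptomes of mice colonized with human gut microbiota. The 6 genes were found by their Ensembl identifiers among the 47643 genes counted in each of 2 tables, and each had a row in both. *Gad1* and *Gad2* stand for synthesis, *Slc32a1* for vesicular loading, *Slc6a11* for uptake, and *Abat* and *Aldh5a1* for breakdown. The mice were wild-type germ-free Swiss Webster females of 6 to 8 weeks, an outbred stock, all fed the same control diet. Each of 20 cohorts was colonized with stool from 1 of 10 human donors, taken before (pre-KD) or during (post-KD) ketogenic diet therapy, and no mouse ate a ketogenic diet. Tissue of 6 mice was combined into every library, from hippocampus and frontal cortex dissected 4 days after transfer. The 40 libraries fall into 10 for each region and condition, the replicate is the donor's cohort, and variation among single mice cannot be measured.

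GABA is the main inhibitory transmitter of the adult forebrain. Glutamic acid decarboxylase makes it from glutamate with vitamin B6 as cofactor, the vesicular transporter VGAT packs it into synaptic vesicles, and sodium-coupled transporters of the Slc6 family clear it from the extracellular space into neurons and astrocytes. GABA transaminase then converts it to succinic semialdehyde, which succinic semialdehyde dehydrogenase passes to the tricarboxylic acid cycle as succinate, a route called the GABA shunt. Blocking uptake or the transaminase with drugs raises brain GABA and is an established way to treat seizures.

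The libraries held 1140756 to 2095352 gene counts each, so these genes were read at modest depth. In each region and condition the median library held between 32.5 and 282.5 counts of any of the 6 genes. The labelled tissues were checked with marker genes in the test between regions. Over all 19422 genes tested, 0.87% were higher in the hippocampus and 1.95% higher in the frontal cortex at an adjusted p under 0.05. Of 6 hippocampal markers, 5 were higher in the hippocampus at that threshold. Of 6 cortical markers, 2 were higher in the frontal cortex and 1, *Fezf2*, was higher in the hippocampus. Markers of striatal neurons, which are GABAergic, were present in the frontal cortical libraries (8 of 8 tested higher than in the hippocampus), and markers of the choroid plexus were present in the hippocampal libraries (5 of 7 higher than in the frontal cortex).

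The main question of the design is whether brain expression differs between recipients of post-KD and pre-KD microbiota. For none of the 6 GABA genes did the difference between them pass the edgeR test in either region, and hippocampal *Abat* passed an unadjusted test paired by donor, given with that gene. In the hippocampus, 0 of 6 passed an unadjusted p of 0.05, where 10.1% of the 17529 genes tested did, and 0 of 6 passed after Benjamini-Hochberg adjustment, where 0.0057% did. In the frontal cortex, 0 of 6 passed the unadjusted threshold against 9.68% of 17873 genes, and 0 of 6 passed after adjustment against 0.0056%. The unadjusted shares depend on the gene filter. With the stricter filter on expression of edgeR, 221 of 9509 genes passed in the hippocampus and 407 of 10033 in the frontal cortex. Fitted log2 fold changes of post-KD over pre-KD were positive for 4 genes and negative for 2 in the hippocampus, with a median of 0.15 beside -0.01 over all genes. Frontal cortical values were positive for 5 and negative for 1, with a median of 0.18 beside 0.01 over all genes. A p that misses the threshold does not show equal levels, so the 95% interval of each difference is given with each gene below. Bulk tissue was sequenced, in which fewer cells of a type and less RNA per cell cannot be told apart.

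**Figure D1:**
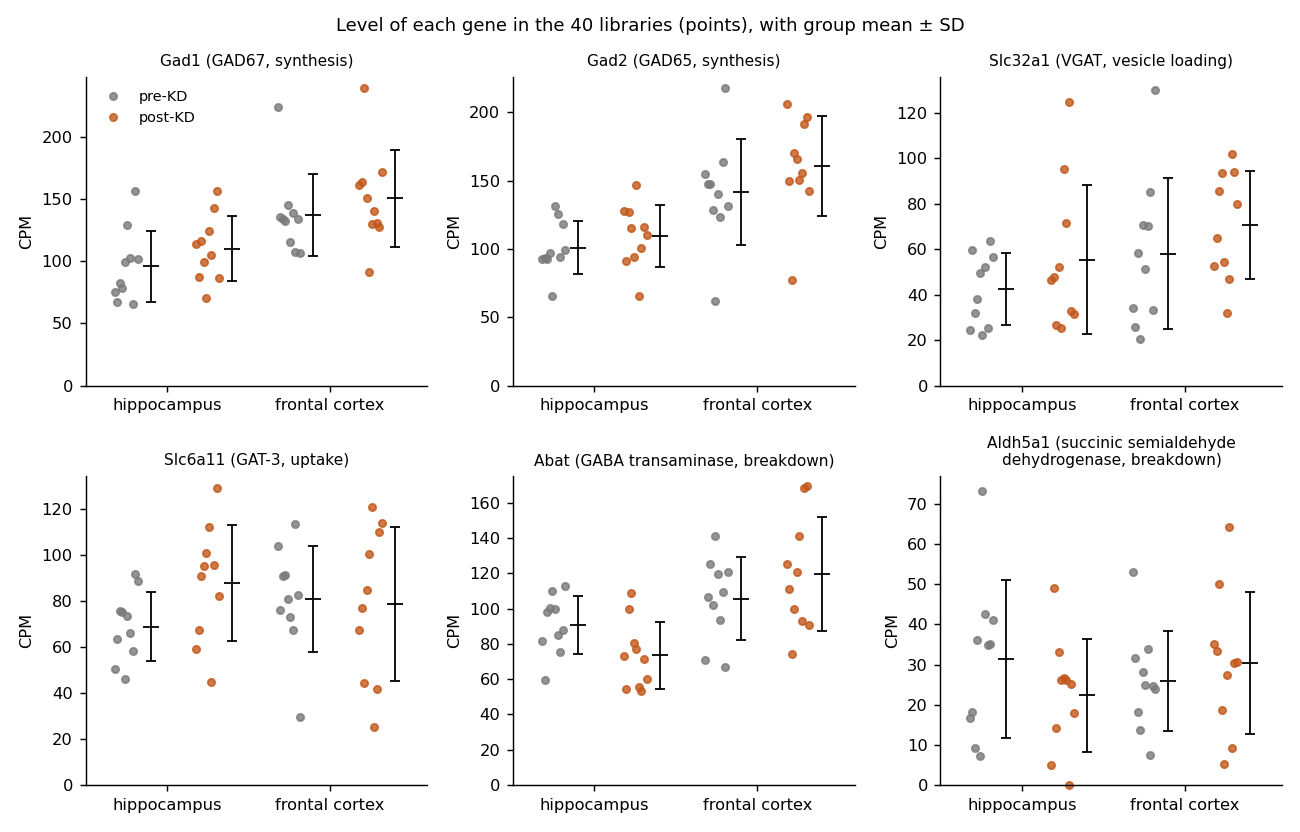
Level of each of the 6 genes in CPM (vertical axis from 0) in every library, by region and by pre-KD (grey) or post-KD (orange) cohorts. Points are libraries, and the bar beside each group is its mean ± SD (n = 10). The pre-KD and post-KD points of a region overlap for every gene, and the mean over the 20 libraries of a region is higher in the frontal cortex for all 6 genes, by little for *Slc6a11* (78.2 and 79.6 CPM) and *Aldh5a1* (26.9 and 28.2 CPM).

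*Gad1* (ENSMUSG00000070880, chromosome 2, 70553072 to 70602014, plus strand, GRCm38) encodes GAD67, the decarboxylase found throughout GABAergic neurons that supplies most basal GABA. Its level, in CPM (counts scaled to the size of each library, with trimmed mean of M values factors over the 40 libraries), ran from 65.7 through a median of 91.2 to 156 in hippocampal pre-KD libraries. The hippocampal post-KD libraries ran from 70.5 through 109 to 156. Both groups covered the same range, and the fitted log2 fold change of 0.19 (SE 0.22, 95% interval -0.24 to 0.62) had an unadjusted p of 0.38 and an adjusted p of 0.9998. Frontal cortical pre-KD libraries ran from 107 through 134 to 223 CPM. The post-KD libraries ran from 91.3 through 145 to 239 CPM and spread to both sides of the pre-KD range. The log2 fold change there was 0.13 (SE 0.15, interval -0.17 to 0.43, unadjusted p = 0.388, adjusted p = 0.97). Across donors the post-KD cohort was higher in 7 of 10 pairs in each region.

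*Gad2* (ENSMUSG00000026787, chromosome 2, 22622205 to 22693874, plus strand) encodes GAD65, the decarboxylase that is anchored to synaptic vesicles and serves on-demand synthesis at the terminal. Hippocampal pre-KD libraries ran from 65.5 through 95.4 to 132 CPM. Hippocampal post-KD libraries ran from 65.4 through 113 to 147 CPM, again over much the same range. Its log2 fold change was 0.11 (SE 0.21, interval -0.31 to 0.53, unadjusted p = 0.617, adjusted p = 0.9998). Frontal cortical *Gad2* ran from 61.7 through 144 to 218 CPM pre-KD. The post-KD libraries ran from 77.7 through 161 to 206 CPM, within the limits of the pre-KD group. The log2 fold change was 0.18 (SE 0.16, interval -0.13 to 0.49, unadjusted p = 0.248, adjusted p = 0.92). It was higher post-KD in 8 of 10 donor pairs, with differences from -0.91 to 1.41 in log2 CPM.

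The 2 decarboxylase genes are the members that passed the test between regions, so a stretch upstream of 1 RefSeq start of each is shown here. The windows come from RefSeq (GRCm38.p6), are written 5′ to 3′ on the plus strand, and were trimmed to their longest run without a GENCODE M21 exon, which left out the 87 bases next to the start of *Gad1* and the 122 bases next to that of *Gad2*. Both RefSeq starts lie inside the genes as GENCODE places them. The *Gad1* stretch itself is inside the annotated gene, downstream of its first base, and is not the sequence before the gene, while the *Gad2* stretch ends at the base before the annotated gene. Capitals mark matches, on either strand, to the motifs searched, which were the TATA box as TATAAA, the CCAAT box, the GC box as GGGCGG, the E-box as CACGTG and the cyclic AMP response element as TGACGTCA.
Gad1, chr2:70561879-70562041: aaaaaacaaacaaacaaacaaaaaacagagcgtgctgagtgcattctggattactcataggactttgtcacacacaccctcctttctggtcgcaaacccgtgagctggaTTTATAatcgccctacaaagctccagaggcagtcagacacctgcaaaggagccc
Gad2, chr2:22622077-22622204: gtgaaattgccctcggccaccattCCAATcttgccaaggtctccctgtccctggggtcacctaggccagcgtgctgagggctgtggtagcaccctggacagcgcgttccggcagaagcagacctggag
The *Gad1* stretch of 163 bases is 46.6% G or C and holds TATAAA once, on the opposite strand. Of 32851 windows, 7.78% hold that motif on either strand anywhere in the stretch at the same distance from their start. The *Gad2* stretch of 128 bases is 62.5% G or C and holds CCAAT once, as 17.2% of windows do at least once, on either strand, anywhere in the corresponding stretch. No motif of the search was found in both stretches, and a match here is a string of letters and not a measured binding site.

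*Slc32a1* (ENSMUSG00000037771, chromosome 2, 158610767 to 158615748, plus strand) encodes VGAT, the only vesicular transporter for GABA and glycine. It was the most variable of the neuronal genes over libraries relative to its level. Hippocampal pre-KD libraries ran from 22.5 through 43.8 to 63.6 CPM. Hippocampal post-KD libraries ran from 25.4 through 47.3 to 125 CPM, so that the medians were close and the highest post-KD libraries stood above the pre-KD range. Post-KD over pre-KD gave a log2 fold change of 0.38 (SE 0.33, interval -0.28 to 1.03, unadjusted p = 0.254, adjusted p = 0.976), and 5 of 10 donor pairs were higher post-KD. The differences within donors ran from -0.93 to 2.25 in log2 CPM, and without donor 8 the fitted value was 0.11. Cortical pre-KD libraries ran from 20.3 through 54.8 to 130 CPM. The post-KD libraries ran from 32.0 through 72.3 to 102 CPM and lay within the pre-KD range. This gave a log2 fold change of 0.28 (SE 0.24, interval -0.19 to 0.76, unadjusted p = 0.242, adjusted p = 0.917), with 6 of 10 pairs higher.

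*Slc6a11* (ENSMUSG00000030307, chromosome 6, 114131241 to 114249952, plus strand) encodes GAT-3, the GABA transporter of astrocyte processes. Hippocampal pre-KD libraries ran from 45.8 through 69.7 to 91.6 CPM. Hippocampal post-KD libraries ran from 44.8 through 93.0 to 129 CPM, with a higher median and an overlapping range. A log2 fold change of 0.34 (SE 0.25, interval -0.16 to 0.84, unadjusted p = 0.179, adjusted p = 0.898) was fitted. Within donors it was higher post-KD in 8 of 10 hippocampal pairs, with an exact sign-flip p of 0.0566. Frontal cortical libraries ran from 29.5 through 81.6 to 113 CPM pre-KD. They ran from 25.3 through 80.8 to 121 CPM post-KD, with nearly the same medians, and 5 of 10 pairs were higher. The log2 fold change was -0.04 (SE 0.21, interval -0.47 to 0.38, unadjusted p = 0.84, adjusted p = 0.998), and its sign turned when donor 1, 3, 7 or 8 was left out (highest value 0.09).

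Of the other transporters of the family, *Slc6a13* and *Slc6a12* were scarce and did not pass in either region: *Slc6a13* (GAT-2) had a median of 14.5 CPM in the hippocampus and 12.9 CPM in the frontal cortex, and *Slc6a12* (BGT-1) was at 0 counts in 14 of 20 hippocampal and 12 of 20 frontal cortical libraries. The frontal cortical log2 fold change of *Slc6a12* was 2.53 (SE 1.32, unadjusted p = 0.0603, adjusted p = 0.567), with 8 counts in all pre-KD libraries together against 52 in the post-KD ones, and its hippocampal value was 0.25 (SE 1.39, unadjusted p = 0.856). *Slc6a13* had 0.54 (SE 0.53, unadjusted p = 0.312) in the frontal cortex and 0.63 (SE 0.69, unadjusted p = 0.36) in the hippocampus.

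*Abat* (ENSMUSG00000057880, chromosome 16, 8513429 to 8621568, plus strand) encodes GABA transaminase, the mitochondrial enzyme that begins GABA breakdown. Hippocampal pre-KD libraries ran from 59.3 through 92.8 to 113 CPM. Hippocampal post-KD libraries ran from 53.1 through 72.1 to 109 CPM, with a lower median and an overlapping range. A log2 fold change of -0.32 (SE 0.24, interval -0.80 to 0.16, unadjusted p = 0.193, adjusted p = 0.924) was fitted without pairing. Paired by donor, the post-KD cohort was lower in 8 of 10, by a mean log2 difference of -0.32 with a range of -0.90 to 0.12, and the exact two-sided sign-flip test gave p = 0.00977. That was the 1 value under 0.05 among 12 such tests of these genes, the smallest p such a test allows is 0.00195, and no correction for the 12 tests was applied. With the donor as a block in the model over all genes, *Abat* had an unadjusted p of 0.221 in edgeR and 0.0751 in DESeq2, and an adjusted p of 1 and 0.977. Over 8 alternative fits its unadjusted p ran from 0.0751 to 0.221. Pre-KD libraries of the frontal cortex ran from 66.6 through 108 to 141 CPM. The post-KD libraries ran from 74.4 through 116 to 169 CPM, and 5 of 10 pairs were higher. The log2 fold change there was 0.17 (SE 0.16, interval -0.16 to 0.50, unadjusted p = 0.309, adjusted p = 0.95).

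*Aldh5a1* (ENSMUSG00000035936, chromosome 13, 24907579 to 24937661, minus strand) encodes succinic semialdehyde dehydrogenase, which completes the shunt and whose inherited loss causes a disorder with seizures. It was the scarcest of the 6 genes, and its interval was the widest. Hippocampal pre-KD libraries ran from 7.27 through 35.0 to 73.3 CPM. Hippocampal post-KD libraries ran from 0 through 25.7 to 49.2 CPM, with the library of donor 8 at 0 counts. Its log2 fold change was -0.50 (SE 0.49, interval -1.47 to 0.48, unadjusted p = 0.317, adjusted p = 0.9998), and without donor 8 it was -0.32. Pre-KD libraries of the frontal cortex ran from 7.55 through 24.7 to 53.1 CPM. The post-KD libraries ran from 5.16 through 30.4 to 64.2 CPM. The log2 fold change was 0.23 (SE 0.35, interval -0.46 to 0.92, unadjusted p = 0.515, adjusted p = 0.991). The gene shares 203 exonic bases with the lncRNA 9330162012Rik on the other strand, which had 425 counts over the 40 libraries, and whether strand was used in counting is not given in the sources used here, so reads of that stretch cannot be told apart.

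**Figure D2:**
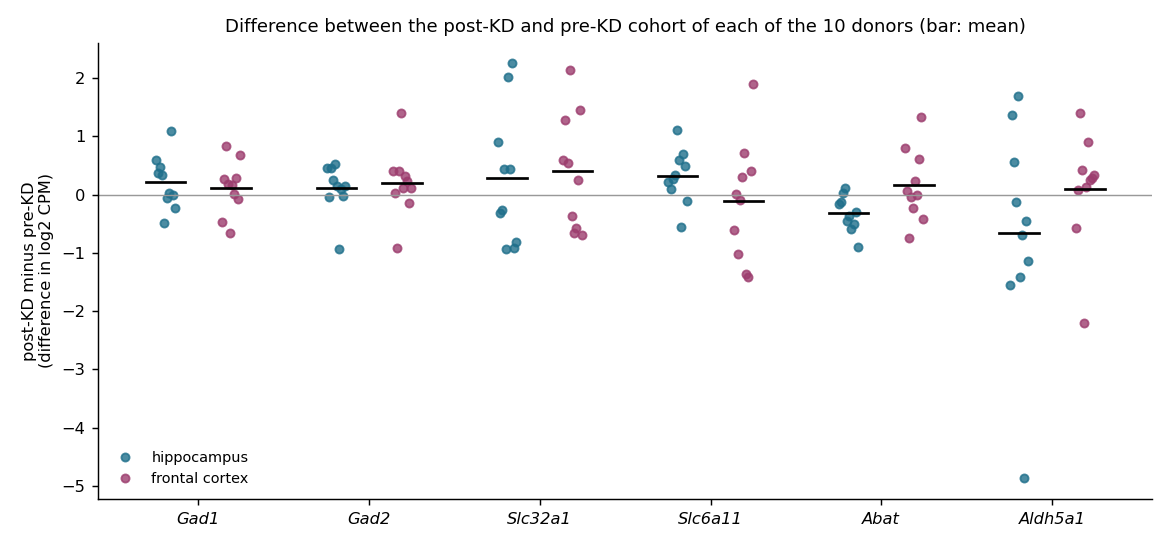
Post-KD minus pre-KD difference in log2 CPM (vertical axis) for each gene in the hippocampus (blue) and the frontal cortex (purple). Each point is 1 of the 10 donors and the bar is the mean. Hippocampal *Abat* points lie between -0.90 and 0.12, with 8 of 10 below 0, and the lowest point of the plot is *Aldh5a1* of donor 8, at -4.87.

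These fold changes also moved with single donors. When each donor was left out in turn, the frontal cortical log2 fold change ran from 0.031 to 0.22 for *Gad1*, 0.088 to 0.27 for *Gad2*, 0.12 to 0.48 for *Slc32a1*, 0.042 to 0.26 for *Abat* and 0.074 to 0.37 for *Aldh5a1*. The hippocampal value ran from 0.10 to 0.25 for *Gad1*, 0.068 to 0.22 for *Gad2*, 0.11 to 0.52 for *Slc32a1*, 0.26 to 0.42 for *Slc6a11*, -0.38 to -0.25 for *Abat* and -0.76 to -0.29 for *Aldh5a1*. None of these values passed after adjustment.

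The hippocampus and frontal cortex of the same cohorts were then compared, which asks how the level of each gene differs between the 2 tissues. Both decarboxylase genes were lower in the hippocampus than in the frontal cortex. *Gad1* differed by a log2 fold change of -0.49 (SE 0.14, interval -0.77 to -0.22), which is 1.41-fold lower in the hippocampus (unadjusted p = 0.000424, adjusted p = 0.0195). *Gad2* differed by -0.50 (SE 0.14, interval -0.77 to -0.23), 1.42-fold lower in the hippocampus (unadjusted p = 0.000259, adjusted p = 0.0135). These were 2 of the 6 genes. Of the 19422 genes tested, 1.95% were lower in the hippocampus at an adjusted p under 0.05, 0.87% were higher and 2.82% differed in either direction. The median log2 fold change was -0.43 over the 6 genes and -0.17 over all genes, so that the whole distribution was also shifted, by -0.14 with RLE size factors and -0.08 in DESeq2. Over 20 libraries *Gad1* averaged 103 ± 27.7 CPM (SD) in the hippocampus and 144 ± 35.7 CPM in the frontal cortex. *Gad2* averaged 105 ± 21.02 CPM and 151 ± 37.8 CPM. Within cohorts *Gad1* was lower in the hippocampus in 16 of 20, with 8 of 10 among pre-KD and 8 of 10 among post-KD cohorts. *Gad2* was lower in 17 of 20, with 8 of 10 pre-KD and 9 of 10 post-KD. The ranges of the 20 and 20 libraries overlapped for both genes, as they did for all but 0.0721% of genes. Leaving out the 4 libraries of donor 1, 2, 3 or 4 raised the adjusted p of *Gad1* to between 0.0566 and 0.099, and leaving out donor 8 raised that of *Gad2* to 0.0615.

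*Abat* lay at 82.2 ± 19.6 CPM in the hippocampus and 113 ± 28.4 CPM in the frontal cortex, and was lower in the hippocampus in 16 of 20 cohorts. Its log2 fold change of -0.45 (SE 0.16, interval -0.76 to -0.15) passed the unadjusted threshold (p = 0.00361) and missed it after adjustment (0.101). The adjusted p was 0.0129 in DESeq2 and 0.022 without the cohort terms, so the call depended on the model. *Slc32a1* had a log2 fold change of -0.42 (SE 0.22, interval -0.84 to 0.01, unadjusted p = 0.0579, adjusted p = 0.518) and was lower in the hippocampus in 14 of 20 cohorts. *Aldh5a1* had a log2 fold change of -0.24 (SE 0.35, interval -0.92 to 0.44, adjusted p = 0.959), and it ran from -0.41 to -0.016 when each donor was left out. The astrocytic transporter *Slc6a11* lay at 78.2 ± 22.3 CPM in the hippocampus and 79.6 ± 27.8 CPM in the frontal cortex. Its log2 fold change was 0.02 (SE 0.18, interval -0.33 to 0.36, adjusted p = 1), with a sign that turned without the cohort terms (-0.03).

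**Figure D3:**
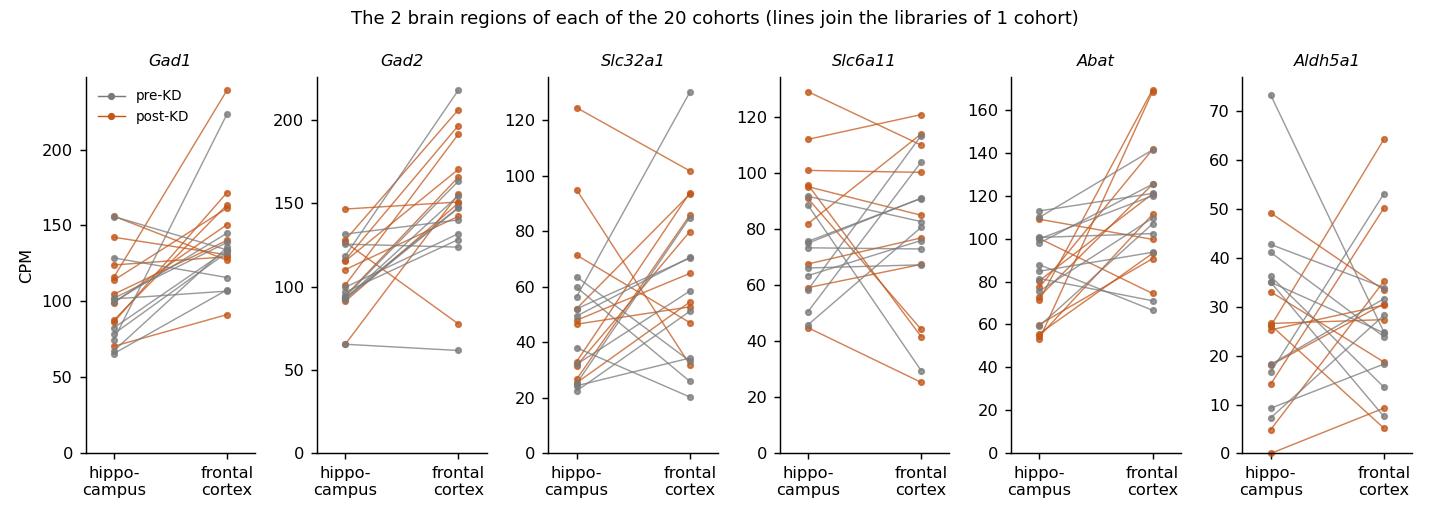
CPM (vertical axes from 0) of each gene in the hippocampus and frontal cortex, with a line joining the 2 libraries of each of the 20 cohorts (grey pre-KD, orange post-KD). Most *Gad1*, *Gad2* and *Abat* lines rise toward the frontal cortex (16, 17 and 16 of 20), while *Slc6a11* lines run both ways (11 of 20 rise).

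The frontal cortical libraries also carried striatal neuron markers at higher levels than the hippocampal ones. The 8 striatal markers with a level, such as *Ppp1r1b*, *Penk* and *Adora2a*, were all higher in the frontal cortex at an adjusted p under 0.05, where 1.95% of all genes tested were. Their median log2 fold change was -3.16. Their summed level ran from 57.4 to 381 CPM in the hippocampus and from 623 to 1365 CPM in the frontal cortex, with no overlap. *Drd2*, the ninth marker, was at 0 in all 20 hippocampal libraries and had 5 counts in all in the frontal cortex. Within each region the level of every GABA gene was set against that sum, in 12 tests over 20 libraries each that were added after seeing the data, and none passed after adjustment. In the frontal cortical libraries Pearson's r ran from -0.06 to 0.13 over the 6 genes. For *Gad1* there r was 0.01 (permutation p = 0.969, adjusted p = 0.969) and Spearman's rho -0.16 (p = 0.486, adjusted p = 0.725), with r at -0.26 without the 2 libraries farthest from the median. For *Gad2* r was 0.04 (permutation p = 0.846, adjusted p = 0.923) and rho 0.08 (p = 0.747, adjusted p = 0.747), with r at 0.22 without the 2 farthest. The closest relation was that of *Gad2* in the hippocampus, where r was 0.40 (permutation p = 0.0782, adjusted p = 0.737) and rho 0.53 (p = 0.0181, adjusted p = 0.217). That r was 0.60 without the 2 farthest libraries, 0.80 within pre-KD and 0.34 within post-KD libraries. Hippocampal *Gad1* had an r of 0.14 (permutation p = 0.553, adjusted p = 0.923, rho 0.20, p = 0.408). The part of striatal tissue in the region difference itself was not tested.

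**Figure D4:**
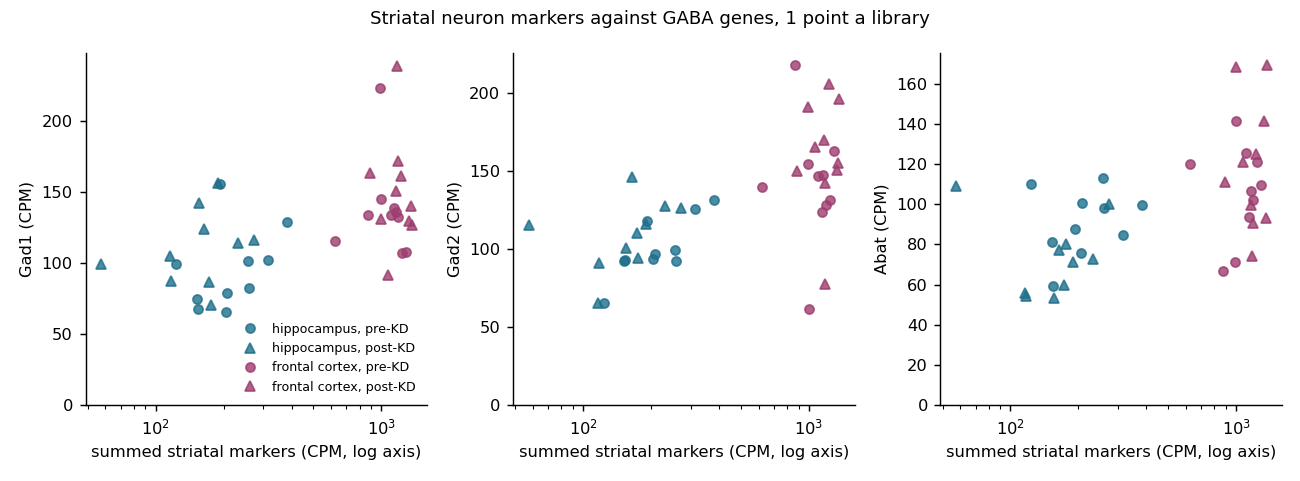
Summed CPM of the striatal neuron markers (horizontal log axis) against *Gad1*, *Gad2* and *Abat* CPM (vertical axes from 0) in each of the 40 libraries, by region (blue hippocampus, purple frontal cortex) and condition (circles pre-KD, triangles post-KD). The regions are fully apart on the horizontal axis, at 57.4 to 381 and 623 to 1365 CPM, r within the frontal cortex is 0.01, 0.04 and 0.13 for the 3 genes, and hippocampal *Gad2* has an r of 0.40.

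General markers of GABAergic neurons were also lower in the hippocampus for part of the list. Of 15 identity genes, 2 were lower at an adjusted p under 0.05, where 1.95% of all genes tested were. They were *Npy*, a neuropeptide of interneurons (log2 fold change -1.11, adjusted p = 4.67e-15), and *Dlx1*, an interneuron transcription factor (-1.28, adjusted p = 0.0305). Another 3 passed the unadjusted threshold only, where 10.3% of all genes tested passed it in either direction. *Dlx5* among them was the lowest of the list (-2.73, adjusted p = 0.185), and *Erbb4* was the highest (0.17, adjusted p = 0.939). The median over the 15 was -0.53, beside -0.17 over all genes. Their summed level ran from 596 to 991 CPM in the hippocampus and from 769 to 1241 CPM in the frontal cortex.

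**Figure D5:**
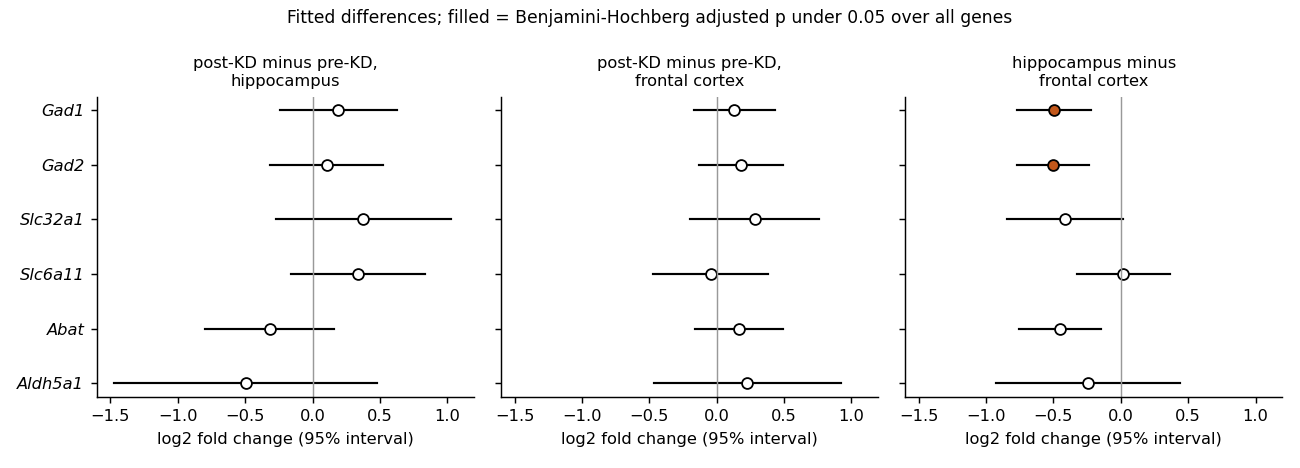
Fitted log2 fold changes (points) with 95% intervals (lines) of the 6 genes, for post-KD minus pre-KD in each region and for hippocampus minus frontal cortex. Filled points passed an adjusted p of 0.05 over all genes. All 12 intervals of post-KD minus pre-KD include 0, and in the region comparison *Gad1* (-0.49) and *Gad2* (-0.50) are filled.

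Whether the post-KD difference itself varied between regions was tested over the 40 libraries. None of the 6 genes passed in edgeR at either threshold, where 2.22% of genes passed the unadjusted threshold and 0.0154% the adjusted one (0.0103% with a negative and 0.00515% with a positive difference). The fitted value, hippocampal change minus frontal cortical change, was -0.80 for *Aldh5a1* (SE 0.70, unadjusted p = 0.256), and it ran from -1.31 to -0.32 when each donor was left out. That of *Abat* was -0.49 (SE 0.31, interval -1.10 to 0.11, unadjusted p = 0.111, adjusted p = 1), and in DESeq2 its unadjusted p was 0.0442 with an adjusted p of 0.999. It was 0.45 for *Slc6a11* (SE 0.35, unadjusted p = 0.209). Leaving out each donor gave -0.64 to -0.38 for *Abat* and 0.25 to 0.70 for *Slc6a11*. The values for *Gad1*, *Gad2* and *Slc32a1* were 0.09, -0.09 and -0.11, each with an SE of at least 0.27.

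Levels of different genes can be compared only per length, here in CPM per kb of annotated exon. Because a 3′ library kit is named beside a full-length kit in the study's methods, that order carries the reservation that a 3′ library would not scale with length. In the hippocampus the order was *Gad2* (17.9 ± 3.58 CPM per kb, SD over 20 libraries), *Slc32a1* (17.5 ± 9.22), *Slc6a11* (15.5 ± 4.43), *Gad1* (13.5 ± 3.63), *Abat* (10.6 ± 2.53) and *Aldh5a1* (4.76 ± 3.06). In the frontal cortex it was *Gad2* (25.7 ± 6.44), *Slc32a1* (23.0 ± 10.3), *Gad1* (18.8 ± 4.67), *Slc6a11* (15.8 ± 5.51), *Abat* (14.5 ± 3.67) and *Aldh5a1* (4.99 ± 2.66). Neighbours in either order overlapped in range. *Aldh5a1* was the most separate, lying below *Abat* in 18 of 20 hippocampal and 19 of 20 frontal cortical libraries. GAD65 message exceeded GAD67 message per kb in 15 of 20 hippocampal libraries and 17 of 20 frontal cortical libraries, with a mean ratio of *Gad2* to *Gad1* of 1.39 ± 0.32 and 1.45 ± 0.49. The ratio of both decarboxylases to *Abat*, per kb, averaged 2.59 ± 0.63 in hippocampal pre-KD and 3.64 ± 0.90 in hippocampal post-KD libraries, against 3.38 ± 1.56 and 3.24 ± 0.83 in the frontal cortex. The hippocampal ranges overlapped, at 1.71 to 3.58 pre-KD and 2.32 to 5.22 post-KD. This ratio was not tested, and none of its genes passed the edgeR test between conditions.

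The genes were next compared with each other across the 20 libraries of a region, over 30 pairs in all, with values that share a library and its scaling. *Gad1* and *Aldh5a1* varied together in the frontal cortex, where Pearson's r was 0.70 (permutation p = 0.00076, adjusted p = 0.0228) and Spearman's rho 0.72 (p = 0.00044, adjusted p = 0.0132). Without the 2 libraries farthest from the median of *Gad1*, r was 0.64, and it was 0.70 within pre-KD and 0.70 within post-KD libraries. *Gad1* and *Abat*, the other gene of breakdown, had an r of -0.52 in the frontal cortex (permutation p = 0.0176, adjusted p = 0.176) and a rho of -0.53 (p = 0.018, adjusted p = 0.148), with r at -0.21 without the 2 farthest libraries. In the hippocampus *Gad1* and *Aldh5a1* had an r of -0.17 (permutation p = 0.477, rho -0.02, p = 0.927), with 0.37 pre-KD and -0.46 post-KD. *Gad2* and *Slc6a11* had an r of 0.63 in the hippocampus (permutation p = 0.00263, adjusted p = 0.0394), but rho was 0.52 (p = 0.0197, adjusted p = 0.148). That r was 0.36 without the 2 libraries farthest from the median of *Gad2*, and it was 0.63 within pre-KD and 0.61 within post-KD libraries. In the frontal cortex the pair had an r of 0.15 (permutation p = 0.532, rho 0.18, p = 0.445). The 2 decarboxylase genes themselves had an r of 0.44 in the hippocampus (permutation p = 0.0514, adjusted p = 0.308, rho 0.60, p = 0.00568, adjusted p = 0.0852) and of -0.30 in the frontal cortex (permutation p = 0.195, adjusted p = 0.486, rho -0.16, p = 0.49). No gene's level in the hippocampus had a correlation with its level in the frontal cortex of the same cohort that passed, with r from -0.14 to 0.29 over 20 cohorts and permutation p from 0.206 to 0.886 in 6 tests (all adjusted p 0.886).

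After the mean of each region and condition was removed, the genes most like each member over the 40 libraries were ranked among 7671 genes. Nearly all of these lie outside the pathway, so the genes most alike were likely to come from outside it whatever the data. The genes most alike were *Rsrp1*, *Ndfip2* and *G3bp2* for *Gad1* (r of 0.61 for each), *Rbm18*, *Gm38120* and *Dot1l* for *Gad2* (0.55 to 0.57), and *Shank2* and *Qser1* for *Slc32a1* (0.54 to 0.56). For *Slc6a11* they were *Ctss*, *Acp2* and *Ecpas* (0.54 to 0.55), for *Abat* *Tomm22*, *Sh3gl3* and *Cplane1* (0.57 to 0.61), and for *Aldh5a1* *C1d*, *Ccnl2* and *Cdc40* (0.67 to 0.69). Between members r ran from -0.26 (*Slc32a1* and *Aldh5a1*) to 0.31 (*Gad2* and *Slc6a11*). These are descriptions of libraries that share depth and composition, and the highest r among so many genes was not tested against chance.

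The steps around the 6 genes were examined with lists for the other GABA transporters, glutamate and glutamine supply, the enzymes next to the shunt, the putrescine route to GABA, vitamin B6 supply and the anchoring of GAD65 to vesicles. Of 37 such genes tested in the hippocampus, 1 had a higher and 2 a lower level post-KD at an unadjusted p under 0.05, where 10.1% of all genes passed, and 0 passed after adjustment in edgeR. The lower genes were *Pdxk*, the kinase that makes the active form of vitamin B6 (log2 fold change -0.48, SE 0.20, unadjusted p = 0.0156, adjusted p = 0.223), and *Zdhhc13*, a palmitoyltransferase (-2.28, SE 1.13, unadjusted p = 0.0466, adjusted p = 0.478), which was at 0 counts in 7 of 20 hippocampal libraries. *Pdxk* ran from 102 through 166 to 285 CPM pre-KD and from 74.9 through 114 to 200 CPM post-KD in the hippocampus, with overlapping ranges. In the frontal cortex 0 of 37 passed either threshold, against 9.68% of all genes at the unadjusted one. *Pdxk* there had medians of 167 CPM pre-KD and 159 CPM post-KD.

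Glutamine and glutamate, from which GABA is made, were represented by a gene of much higher level, *Glul*, the glutamine synthetase of astrocytes. It had a log2 fold change of 0.19 in the hippocampus (SE 0.11, unadjusted p = 0.0988) and -0.02 in the frontal cortex (SE 0.09, unadjusted p = 0.852). *Akr7a5*, which reduces succinic semialdehyde to γ-hydroxybutyrate, had 0.37 (SE 0.52) and 0.19 (SE 0.37). Neither passed in either region. Between the regions, 0 of the 37 genes passed after adjustment, and 3 passed the unadjusted threshold, where 10.3% of all genes tested did. The most negative and most positive log2 fold changes were -0.84 (*Slc6a12*) and 0.04 (*Slc6a13*) for the other transporters, -1.99 (*Slc38a5*) and 0.17 (*Glud1*) for glutamate and glutamine, and -1.19 (*Adhfe1*) and 0.27 (*Suclg2*) beside the shunt. They were -2.64 (*Odc1*) and 0.54 (*Aldh9a1*) for the putrescine route, -0.31 (*Alpl*) and 0.12 (*Plpbp*) for vitamin B6, and -0.47 (*Zdhhc13*) and 0.51 (*Hspa8*) for GAD65 anchoring.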

How the data were processed

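The authors deposited 1 table of raw read counts per region, made per the labels and methods by trimming paired reads of 69 bases, aligning to mm10 with STAR 2.5.2a and counting with HTSeq 0.6.0. The methods name a TruSeq kit, the resources table a QuantSeq FWD 3′ kit and HISAT2, and the annotation release and strand setting are not given in the sources used here. All 40 columns were used. The row Gm42418 held 8.63% to 18.0% of each library.

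Genes with at least 10 summed counts were tested with edgeR 4.0.16 (quasi-likelihood, TMM, R 4.3.3) and Benjamini-Hochberg adjustment over all genes. Post-KD was compared with pre-KD in each region without a donor term, and the regions in 1 fit of 40 libraries in which every one of the 20 cohorts has its own term. Correlations used log2 CPM (prior count 2) and 100000 permutations (scipy 1.17.1), two-sided. Positions are GENCODE M21. Alternatives were DESeq2 1.42.0, limma-voom (limma 3.58.1), RLE scaling, other filters, the donor block, exact sign-flip tests, and leaving out Gm42418 or each donor. Scripts were tested on simulated data.

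Members and lists were chosen with earlier results of these data known. Genes named are the 6 members, *Slc6a13*, *Slc6a12*, *Glul*, *Akr7a5*, list genes with unadjusted p under 0.05 between conditions or at 0 in a region, each list's extremes between regions, and each member's 3 most alike genes among those averaging at least 20 counts in both regions. *Npy* and *Dlx1* (region comparison) were chosen after their values were seen. Some genes that this rule names are not reported here. Of 121 list genes, 120 have a row. Donors pair the cohorts by design. On genes averaging at least 20 counts, the correlation of paired libraries after removing condition means lay between -0.0462 and 0.0363, with 0 of 10 above 0.1 in either region.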

Additional observations from a re-analysis of the deposited data

Results flagged for a closer look

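Among 24 groups of 10 libraries (6 genes, 2 regions and 2 conditions), 2 held a library whose gap to its nearest neighbour was larger than chance usually gives, where about 1 in 20 groups would by chance. In the frontal cortical pre-KD group, *Gad1* of donor 1 was the highest at 223 CPM, with the next library at 145 CPM, a gap of 0.673 of the range. Without donor 1 the log2 fold change of *Gad1* in the frontal cortex was 0.22 (adjusted p = 0.831), the upper end of a range of 0.031 to 0.22 over leaving out each donor, beside 0.13 with all donors. In the frontal cortical post-KD group, *Gad2* of donor 3 was the lowest at 77.7 CPM, with the next library at 142 CPM, a gap of 0.502 of the range. Without donor 3 the log2 fold change of *Gad2* there was 0.27 (unadjusted p = 0.0883, adjusted p = 0.692), the upper end of a range of 0.088 to 0.27 over leaving out each donor, beside 0.18 with all donors.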

How the results depend on the processing

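Depth of at most 2095352 counts a library limits the scarce genes most, *Aldh5a1* above all, and pooling of 6 mice leaves the spread between mice unseen. Of 396 refitted values of the 6 genes, 373 kept their direction and their side of the threshold, 5 lost and 3 gained a call, and 15 changed sign. For post-KD against pre-KD, 0 of 6 genes passed under every alternative except that the exact sign-flip test called 1 in the hippocampus, *Abat*. The donor block changed no call in that comparison. Without the replicate block of cohorts, the region comparison called 3 in place of 2 (DESeq2 also 3), *Slc6a11* between regions turned to -0.035 and the region difference in the *Slc32a1* change turned from -0.11 to 0.11. Leaving out each donor gave 1 to 2 genes between regions. DESeq2 called 1 gene at unadjusted p in the region difference of the change. Leaving out donors also gave values on both sides of 0 for *Slc6a11* in the frontal cortex (-0.22 to 0.089) and between regions (-0.033 to 0.088), and for the region difference in the change of *Gad1* (-0.019 to 0.20), *Gad2* (-0.25 to 0.031) and *Slc32a1* (-0.43 to 0.14). The causes were not tested. Over all genes, the count at unadjusted p under 0.05 was 1762 in the hippocampus and 221 to 2931 under alternatives, 1731 and 407 to 3035 in the frontal cortex, and 431 and up to 1767 for the difference of changes. Adjusted counts were 1 and 0 to 1291 (no gene filter), 1 and up to 12 (donor block in DESeq2), 548 and up to 1222 between regions (no cohort terms), and 3 and 0 to 348.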

Other observations

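Identity and marker genes of brain cell types were tested in the same 2 comparisons, and 0 of 76 passed after adjustment in edgeR in either region. In the hippocampus 4 of 76 passed the unadjusted threshold, against 10.1% of all genes tested. *Calb2*, calretinin of interneurons and mossy cells, ran from 9.55 through 37.9 to 82.8 CPM pre-KD and from 25.01 through 51.6 to 128 CPM post-KD (log2 fold change 0.76, unadjusted p = 0.0274). Of the 15 GABA neuron identity genes, 7 had positive and 8 negative log2 fold changes in the hippocampus, with a median of -0.01. *Mog*, a myelin protein, was higher post-KD (0.90, unadjusted p = 0.041), while 4 of the 6 oligodendrocyte markers had negative values. *Prox1*, a marker of dentate granule cells, was lower post-KD (-0.57, unadjusted p = 0.0256). Of the other hippocampal markers, *C1ql2* (0.78), *Fibcd1* (0.69) and *Dsp* (0.39) had positive values, *Spink8* (-0.03) and *Zbtb20* (-0.11) negative ones, and none of these 5, named after their values were seen, passed. *Ppp1r1b*, the striatal phosphoprotein DARPP-32, was also lower (-0.64, unadjusted p = 0.0322). The 8 striatal markers with a level had negative log2 fold changes in the hippocampus, with a median of -0.53, and their summed level had a median of 206 CPM pre-KD and 169 CPM post-KD.

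In the frontal cortex 4 of 76 marker genes passed the unadjusted threshold, against 9.68% of all genes tested. *Calb2* was lower post-KD (-0.64, unadjusted p = 0.036), and the difference between regions in its change was 1.41 (unadjusted p = 0.00495, adjusted p = 1). Of the 15 GABA neuron identity genes, 6 had positive and 9 negative log2 fold changes in the frontal cortex, with a median of -0.01. The striatal marker *Penk* (0.28, unadjusted p = 0.0349) was higher post-KD, and *Camk2a* of excitatory neurons was lower (-0.20, unadjusted p = 0.00818). Of the 8 striatal markers tested there, 5 had positive and 3 negative log2 fold changes, with a median of 0.08. The summed GABA neuron identity level had medians of 911 CPM pre-KD and 914 CPM post-KD there, and of 807 and 840 CPM in the hippocampus. Over 12 tests against that sum, chosen after seeing the data, no member's level passed after adjustment (r from -0.38 to 0.25 over 20 libraries a region, smallest permutation p = 0.0948, smallest adjusted p = 0.752).

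Between regions, choroid plexus markers had a median log2 fold change of 4.19 toward the hippocampus, from 0.59 (*Clic6*) to 4.72 (*Folr1*), and their summed level ran from 509 to 4418 CPM in the hippocampus and from 7.32 to 607 CPM in the frontal cortex. Of the other marker lists, 2 of 7 excitatory neuron genes were higher and 1 lower in the hippocampus after adjustment, 1 of 9 astrocyte genes was lower, and 0 of 6 oligodendrocyte, 0 of 6 microglial and 0 of 6 endothelial genes passed. Over all genes tested, 0.87% were higher and 1.95% lower in the hippocampus after adjustment.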
